A study of Homo sapiens with 9 samples.

Results

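The replication fork and nucleotide supply genes are 39 human genes that encode the proteins copying DNA at the fork and the enzymes that make its building blocks. They were taken by symbol from a fixed list, and all 39 were found among the 26186 genes of the deposited table. Polyadenylated RNA had been sequenced from MCF10A, an established, non-tumorigenic human breast epithelial line, after knockdown of CHAF1B. CHAF1B encodes a subunit of CAF-1, the complex that deposits histones H3 and H4 on newly copied DNA. The 9 libraries formed 3 groups of 3: cells with a control short hairpin RNA against green fluorescent protein (shGFP), and cells with one of a pair of CHAF1B hairpins, shCHAF1B-1 or shCHAF1B-2. All 3 groups were transduced with a lentiviral pLKO.1 hairpin vector and selected with puromycin at 2 µg/mL from 24 hours after transduction, and RNA was collected on day 3. The control cells therefore carried a vector, a hairpin and the selection too, and no untransduced cells entered the comparison. Nothing in the labels says whether the 3 libraries of a group came from separate cultures, so the p-values measure the spread between these libraries, which may be technical.

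At a replication fork the helicase, made of the MCM ring with CDC45 and the GINS complex, unwinds the double strand. DNA polymerase alpha-primase lays down short primers, polymerase epsilon extends the leading strand and polymerase delta the lagging strand. The sliding clamp PCNA, loaded by replication factor C, tethers the polymerases, RPA coats single-stranded DNA, and FEN1 and LIG1 process and join the lagging-strand fragments. Ribonucleotide reductase, thymidylate synthase and related enzymes supply the deoxynucleotides. Many of these genes are transcribed mainly as cells enter S phase and are textbook targets of E2F transcription factors. In RNA from a whole culture, fewer cells in a given phase and less RNA per cell cannot be told apart.

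The promoters of these genes are shown first, as a description. Whether they have a part in the changes below was not tested. RefSeq promoter windows of 300 bases (250 before to 50 after the annotated start, GRCh38.p14) matched 34 of the 39 genes by symbol. POLD3, DNA2, RPA2, RPA3 and GINS4 had no entry. Both strands were searched for an E2F-type motif, spelled TTTCGCGC, TTTGGCGC, TTTCCCGC or TTTGCCGC. It was found in 12 of the 34 windows (35.3%), against 5.33% of 10535 windows of genes tested here and 3.31% of all 35116 windows. The 12 were POLA1, POLA2, POLE, POLE2, PCNA, RFC3, LIG1, GINS1, GINS2, GINS3, CLSPN and TYMS. In 10 of the 12 the match began between 100 bases before and 50 bases after the start. The 30 bases around the match are given here on the gene's strand, 5′ to 3′, for those whose values are given library by library below, with the motif or its reverse complement in capitals.
POLA2, chr11:65261898-65261927, plus strand: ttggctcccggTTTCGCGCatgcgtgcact
POLE, chr12:132687342-132687371, minus strand: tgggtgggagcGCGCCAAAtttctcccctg
POLE2, chr14:49688201-49688230, minus strand: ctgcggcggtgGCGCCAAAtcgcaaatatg
PCNA, chr20:5126663-5126692, minus strand: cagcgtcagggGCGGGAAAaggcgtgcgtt
RFC3, chr13:33818083-33818112, plus strand: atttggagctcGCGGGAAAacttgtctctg
LIG1, chr19:48170440-48170469, minus strand: acttcacccctTTTCCCGCcctcctcccat
GINS1, chr20:25407667-25407696, plus strand: agctttgttcgGCGCCAAAgcgcggagcgg
TYMS, chr18:657603-657632, plus strand: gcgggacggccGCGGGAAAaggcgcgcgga

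For longer context, the 250 bases upstream of POLA1, which encodes the catalytic subunit of polymerase alpha, are shown with the match in capitals, at 137 bases before the start.
POLA1, chrX:24693668-24693917, plus strand: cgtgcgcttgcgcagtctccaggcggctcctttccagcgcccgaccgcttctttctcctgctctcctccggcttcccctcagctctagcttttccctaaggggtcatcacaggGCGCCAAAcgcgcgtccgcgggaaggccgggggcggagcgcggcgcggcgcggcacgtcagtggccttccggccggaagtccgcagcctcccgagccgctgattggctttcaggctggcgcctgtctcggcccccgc

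CCAAT, on either strand, was present in 19 of the 34 windows (55.9%), against 36.6% of the windows of genes tested. TTTGAA, the core of the cell cycle homology region found in many mitotic genes, was in 2 windows (5.88%), against 9.63% of the windows of genes tested. These matches are letters in a window and were not tested as binding sites.

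Library totals ranged from 24339914 to 31819468 counts, and 16235 genes passed the filter on low counts, including all 39 fork and nucleotide genes. Levels are given as CPM, a library's counts scaled to a common total with the TMM factors. All 10 mammary epithelial markers, KRT5 and LAMB3 the most abundant, were detected in all 9 libraries, with sums of 10800 to 13400 CPM. The single markers moved apart in the mean of both hairpins: 4 fell and 4 rose, against 27.7% and 29.2% of all genes tested. KRT5 stood at 55.9% of control and LAMB3 at 267%. One library stood apart: shCHAF1B-1 replicate 3 held 385 CPM summed over 15 B lymphocyte markers, led by IGHM and MS4A1, against 2.07 to 3.43 CPM in the other 8. CR2, also on that list, was not raised there. It stood at 0.355 CPM, against 1.04 to 1.68 in shGFP and 0.417 to 0.631 in the other knockdown libraries. T lymphocyte markers of shCHAF1B-1 replicate 3, of which 4 of the 10 listed were in the table with LCK and TRAC among them, summed to 4.22 CPM against 0.0702 to 0.546. Most of that sum was LCK, at 3.27 CPM (83 counts), while TRAC had 16 counts and ZAP70 had 6. CD4, at 0.0789 CPM, lay within the range of the other libraries. Myeloid, fibroblast and endothelial marker sums were higher in the knockdown libraries (41.3 to 45.9 against 29.2 to 33.3 CPM, 12.6 to 15.5 against 8.0 to 8.42, and 10.6 to 12.6 against 3.87 to 4.49). Most of each rise was in CD14, COL1A1 and PECAM1. Their means in shGFP, shCHAF1B-1 and shCHAF1B-2 were 13.4, 24.7 and 24.1, 7.69, 14.15 and 13.36, and 2.36, 8.9 and 9.0 CPM. CSF1R and KDR did not pass the test used below, and ITGAM and TEK rose from 0.704 and 0.649 CPM. Fibroblast markers too low to test were split, with lower means under both hairpins for LUM and PDGFRB and higher ones for PDGFRA and THY1. The part of these sums in the results was not tested. Without shCHAF1B-1 replicate 3, 37 of the 39 genes fell in the mean of both hairpins, the same count as with it, and their median log2 fold change was −0.555.

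The targeted gene was checked first. CHAF1B (ENSG00000159259.7, chr21:36385378-36419015, plus strand, GRCh38) stood at 35.2, 41.0 and 36.8 CPM in the shGFP libraries, at 2.56, 3.88 and 3.43 with shCHAF1B-1, and at 2.66, 3.88 and 3.07 with shCHAF1B-2. All 6 knockdown libraries lay far below all 3 controls, at 8.82% of the control level with the first hairpin and 8.54% with the second.

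With CHAF1B knocked down, nearly all of the replication fork and nucleotide supply genes fell, by moderate amounts. In the mean of both hairpins against shGFP, 37 of 39 passed the test downward (edgeR's quasi-likelihood test, Benjamini-Hochberg adjusted p under 0.05 over all genes tested), 0 passed upward, and PCNA and POLD2 did not pass. Of all 16235 genes tested, 27.7% passed downward and 29.2% upward. The median log2 fold change was −0.56 (67.8% of the control level), against −0.01 over all genes tested, and −0.03 over the 13324 tested genes whose shGFP level lay within the range of these 39, of which 31.2% passed downward. The lower end of that range, 0.749 CPM, was set by RNASEH2A alone, and the next lowest of the 39 was POLE2 at 13.6 CPM. The 13324 genes thus include many less abundant than all of the 39 but RNASEH2A. The changes ran from −1.24 for FEN1 to 0.08 for PCNA. In 36 of the 39 genes all 6 knockdown libraries lay below all 3 shGFP libraries, as in 22.7% of all genes tested, and the exceptions were PCNA, POLD2 and POLE3. A fall of at least 1.5-fold with a passing test was seen for 17 genes, against 7.74% of all genes. The 37 also passed downward with each hairpin separately, as did 20.8% of all genes.

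**Figure D1:**
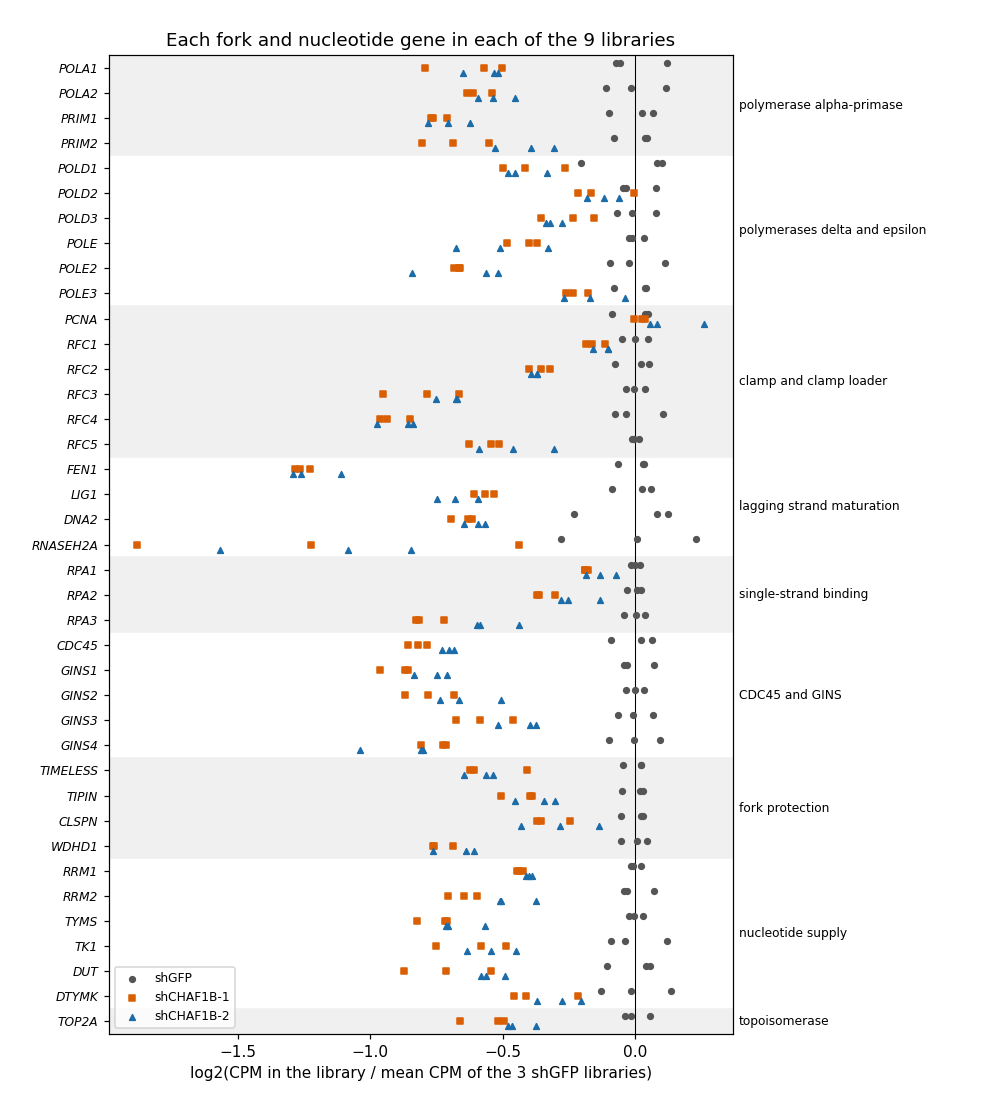
Each row is 1 gene, and each point is 1 library's log2 ratio of CPM to the mean of the 3 shGFP libraries; circles are shGFP, squares shCHAF1B-1 and triangles shCHAF1B-2, and shading marks the roles. In 36 of 39 rows all squares and triangles lie left of all circles, and the exceptions are PCNA, POLD2 and POLE3.

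All 4 subunits of polymerase alpha-primase, which starts every new strand with an RNA-DNA primer, fell with both hairpins, with a median log2 fold change of −0.58. PRIM1 (ENSG00000198056.13, chr12:56731596-56752373, minus strand), the catalytic primase subunit, stood at 24.0, 22.0 and 24.7 CPM in shGFP, 13.8, 13.9 and 14.4 with shCHAF1B-1 and 13.7, 14.4 and 15.3 with shCHAF1B-2. The groups did not overlap, and both hairpins brought it to a like level. Its log2 fold change was −0.73 (SE 0.0601, 95% interval −0.855 to −0.596, edgeR adjusted p = 2.3e-07), or 60.5% of control. POLA2 (ENSG00000014138.8, chr11:65261762-65305589, plus strand), the regulatory B subunit, stood at 37.0, 43.4 and 39.6 CPM in shGFP, 25.7, 27.5 and 26.2 with shCHAF1B-1 and 27.6, 26.5 and 29.2 with shCHAF1B-2. Again no knockdown library reached the lowest control, and the log2 fold change was −0.56 (SE 0.056, edgeR adjusted p = 1.4e-06). POLA1, the DNA polymerase subunit, changed by −0.59 and PRIM2, the large primase subunit, by −0.54.

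The subunits of polymerases delta and epsilon fell less evenly: 5 of 6 passed downward, with a median of −0.34 and a range from −0.65 to −0.12. POLE2 (ENSG00000100479.12, chr14:49643555-49688422, minus strand), the second subunit of polymerase epsilon, fell most. It stood at 12.7, 13.4 and 14.7 CPM in shGFP, 8.58, 8.46 and 8.60 with shCHAF1B-1 and 9.19, 7.58 and 9.50 with shCHAF1B-2. Every knockdown library was below every control, and the log2 fold change was −0.65 (SE 0.0804, edgeR adjusted p = 1.1e-05). POLE (ENSG00000177084.16, chr12:132623753-132687365, minus strand), the catalytic subunit, went from 114, 110 and 110 CPM to 79.6, 86.1 and 84.3 with shCHAF1B-1 and 78.2, 88.6 and 69.8 with shCHAF1B-2. The second hairpin's libraries were spread more widely than the first's (SD 9.42 against 3.32 CPM), and all were below control, with a log2 fold change of −0.46 (SE 0.0593, edgeR adjusted p = 1.7e-05). POLE3, a histone-fold accessory subunit, passed with a small log2 fold change of −0.19 (SE 0.0507), and its groups overlapped: 1 shCHAF1B-2 library at 121 CPM was above the lowest control at 117. Its call with the second hairpin alone was lost without shGFP replicate 2 or 3, shCHAF1B-1 replicate 2, or shCHAF1B-2 replicate 1 or 2, with log2 fold changes from −0.16 to −0.10, and also with no filter on low counts and with only the groups compared.

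In polymerase delta the catalytic subunit POLD1 changed by −0.40 and the accessory subunit POLD3 by −0.28. POLD2 (ENSG00000106628.10, chr7:44114681-44124358, minus strand), another accessory subunit, did not pass. It stood at 169, 183 and 167 CPM in shGFP, 172, 149 and 154 with shCHAF1B-1 and 153, 159 and 166 with shCHAF1B-2. Only shCHAF1B-1 replicate 1 overlapped the controls, and the log2 fold change was −0.12 (SE 0.0513, 95% interval −0.233 to −0.0116, edgeR adjusted p = 0.057). Without that library POLD2 passed at −0.15 (at −0.19 with the first hairpin alone), and it also passed without shCHAF1B-2 replicate 3 (−0.14), with upper-quartile scaling (−0.15) and with a filter of 1 CPM in 3 libraries (−0.13).

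The clamp and its loader parted. PCNA (ENSG00000132646.10, chr20:5114953-5126626, minus strand), the sliding clamp, stood at 154, 168 and 169 CPM in shGFP, 168, 167 and 163 with shCHAF1B-1 and 174, 170 and 196 with shCHAF1B-2. The first hairpin's libraries lay inside the control range and the second's above it, and the log2 fold change was 0.08 (SE 0.05, 95% interval −0.0306 to 0.185, edgeR adjusted p = 0.21). That interval leaves out a fall of the size seen in the median gene of the 39. Without shCHAF1B-2 replicate 2, PCNA passed upward with the second hairpin at 0.18. With the first hairpin its log2 fold change of 0.02 turned to −0.01 under upper-quartile scaling and to −0.02 without shGFP replicate 1.

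All 5 subunits of replication factor C, the ring that opens the clamp and places it on DNA, fell. RFC4 (ENSG00000163918.10, chr3:186789880-186807058, minus strand), a small subunit, stood at 45.3, 46.6 and 51.3 CPM in shGFP, 26.5, 24.5 and 24.9 with shCHAF1B-1 and 26.3, 24.3 and 26.7 with shCHAF1B-2. The knockdown libraries sat within 3 CPM of each other, far from the controls, at a log2 fold change of −0.90 (SE 0.0533, edgeR adjusted p = 7.7e-09), or 53.4% of control. RFC3 (ENSG00000133119.12, chr13:33818049-33966558, plus strand) stood at 49.2, 50.2 and 51.7 CPM in shGFP, 26.1, 29.2 and 31.7 with shCHAF1B-1 and 31.6, 29.9 and 31.5 with shCHAF1B-2. This small subunit too showed no overlap, with a log2 fold change of −0.75 (SE 0.0554, edgeR adjusted p = 7.5e-08). RFC5 changed by −0.50 and RFC2 by −0.37. RFC1, the large subunit, fell least, by 0.14 on the log2 scale (SE 0.0384), and its call with the second hairpin alone was lost without shGFP replicate 1 or 3, shCHAF1B-1 replicate 2, or shCHAF1B-2 replicate 1 or 2 (−0.14 to −0.10), with DESeq2, with no filter and with only the groups compared. Per kilobase of exon, RFC3 stood at 0.934 to 0.988 of the RFC1 level in shGFP and at 0.563 to 0.651 in the knockdown libraries.

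All 4 genes of lagging strand maturation fell, with a median of −0.86. FEN1 (ENSG00000168496.3, chr11:61792637-61797244, plus strand), the flap endonuclease that removes displaced primer ends, stood at 79.0, 84.4 and 84.2 CPM in shGFP, 33.9, 35.2 and 34.3 with shCHAF1B-1 and 33.7, 34.4 and 38.2 with shCHAF1B-2. All 6 knockdown libraries were under 39 CPM, and the level was 42.4% of control (log2 fold change −1.24, SE 0.0465, 95% interval −1.34 to −1.14, edgeR adjusted p = 8.7e-11). Only 1.01% of all genes tested had as low a fold change or lower. FEN1 shares at least 166 bases of exon with TMEM258 on the opposite strand and at least 49 with FADS2, and the library kit does not mark strand.

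LIG1 (ENSG00000105486.13, chr19:48115445-48170603, minus strand), the ligase that seals the fragments, stood at 61.5, 63.1 and 56.9 CPM in shGFP, 40.8, 39.7 and 41.8 with shCHAF1B-1 and 36.0, 40.1 and 37.8 with shCHAF1B-2. The groups were apart, at a log2 fold change of −0.62 (SE 0.0484, edgeR adjusted p = 1.3e-07). DNA2, a nuclease and helicase that trims long flaps, changed by −0.62 as well. Per kilobase of exon, FEN1 stood at 0.304, 0.298 and 0.295 of the PCNA level in the shGFP libraries and at 0.115 to 0.125 in the knockdown libraries.

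RNASEH2A, the catalytic subunit of ribonuclease H2, was barely measured. It had 16, 21 and 25 counts in shGFP, 5, 10 and 14 with shCHAF1B-1 and 10, 9 and 6 with shCHAF1B-2, a total of 116 against at least 2455 for each of the other 38 genes. Its log2 fold change of −1.09 had an SE of 0.283 (edgeR adjusted p = 0.0046). With each hairpin alone the call was lost with DESeq2 and without shGFP replicate 3 (−0.93 with the first hairpin). The first hairpin's call was also lost without shCHAF1B-1 replicate 1 (−0.81) or 2 (−0.97), and the second's without shCHAF1B-2 replicate 3 (−0.96). It shares at least 254 exon bases with THSD8, and the cause of the low count was not tested. Under a filter of 1 CPM in 3 libraries it was removed, and the median of the lagging strand genes then moved from −0.86 to −0.64.

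The 3 subunits of RPA, the single-strand binding complex, fell by unlike amounts. RPA3 (ENSG00000106399.11, chr7:7636518-7718607, minus strand), the smallest, stood at 36.8, 37.5 and 35.6 CPM in shGFP, 22.2, 20.8 and 20.6 with shCHAF1B-1 and 24.4, 24.2 and 27.0 with shCHAF1B-2. The first hairpin's libraries were below the second's, and both were below control, with log2 fold changes of −0.79 and −0.54 (−0.66 in the mean, SE 0.0511, edgeR adjusted p = 1.1e-07). RPA2 (ENSG00000117748.9, chr1:27891524-27914746, minus strand), the subunit phosphorylated by checkpoint kinases, went from 61.3, 62.9 and 63.6 CPM to 50.8, 48.6 and 48.4 with shCHAF1B-1 and 52.5, 51.5 and 57.1 with shCHAF1B-2. No library crossed between control and knockdown, and the log2 fold change was −0.28 (SE 0.0439, edgeR adjusted p = 8.4e-05). RPA1, the large DNA-binding subunit, passed with a change of −0.16 (SE 0.0366), and its call with the second hairpin alone was lost without shGFP replicate 3 (−0.12) or shCHAF1B-2 replicate 2 (−0.10). Per kilobase of exon, RPA1 stood at 2.22 to 2.37 times the RPA3 level in shGFP and at 2.93 to 3.54 times in the knockdown libraries. UMAD1 and SMYD4, on the strands opposite to RPA3 and RPA1, share at least 111 and 156 exon bases with them.

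CDC45 and the 4 GINS subunits, the partners that activate the MCM helicase, all fell, with a median of −0.76. GINS1 (ENSG00000101003.9, chr20:25407727-25452628, plus strand) stood at 35.1, 35.4 and 38.0 CPM in shGFP, 18.5, 19.9 and 19.8 with shCHAF1B-1 and 20.2, 22.1 and 21.5 with shCHAF1B-2. Its highest knockdown library was well under its lowest control, at a log2 fold change of −0.83 (SE 0.0507, edgeR adjusted p = 1.1e-08). CDC45 (ENSG00000093009.9, chr22:19479459-19520612, plus strand) stood at 46.5, 50.4 and 51.9 CPM in shGFP, 28.8, 28.1 and 27.4 with shCHAF1B-1 and 29.9, 30.5 and 30.9 with shCHAF1B-2. The replicates within each knockdown group were within 2 CPM, and the log2 fold change was −0.76 (SE 0.0463, edgeR adjusted p = 1e-08). GINS4 changed by −0.81, GINS2 by −0.71 and GINS3 by −0.50. GINS3 and GINS4 share exon bases with antisense RNAs.

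The 4 fork protection and checkpoint adaptor genes fell, with a median of −0.48. WDHD1 (ENSG00000198554.11, chr14:54938950-55027105, minus strand), which links polymerase alpha to the helicase, stood at 47.7, 45.8 and 48.9 CPM in shGFP, 28.1, 29.5 and 28.0 with shCHAF1B-1 and 28.0, 30.5 and 31.1 with shCHAF1B-2. Control and knockdown libraries were separated by more than 14 CPM, and the log2 fold change was −0.70 (SE 0.0477, edgeR adjusted p = 3.2e-08). TIMELESS (ENSG00000111602.11, chr12:56416373-56449403, minus strand), of the complex that steadies paused forks, stood at 92.9, 97.5 and 97.3 CPM in shGFP, 63.0, 62.3 and 72.3 with shCHAF1B-1 and 61.3, 66.1 and 64.9 with shCHAF1B-2. The highest of the 6 was shCHAF1B-1 replicate 3, still below all controls, and the log2 fold change was −0.56 (SE 0.0503, edgeR adjusted p = 5e-07). TIPIN, its partner, changed by −0.40 and CLSPN, the adaptor for CHEK1 activation, by −0.30.

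All 6 genes of deoxynucleotide supply fell, with a median of −0.56. TYMS (ENSG00000176890.15, chr18:657604-673578, plus strand), thymidylate synthase, stood at 76.1, 77.1 and 79.0 CPM in shGFP, 47.3, 47.0 and 43.7 with shCHAF1B-1 and 47.5, 47.2 and 52.2 with shCHAF1B-2. The control libraries were tight and the knockdown libraries all far lower, at a log2 fold change of −0.70 (SE 0.0454, edgeR adjusted p = 1.8e-08), or 61.4% of control. TYMS shares at least 719 exon bases with ENOSF1 on the opposite strand, so reads there cannot be told apart without strand. RRM1 (ENSG00000167325.14, chr11:4094707-4138876, plus strand), the large subunit of ribonucleotide reductase, stood at 214, 216 and 220 CPM in shGFP, 162, 159 and 160 with shCHAF1B-1 and 165, 163 and 164 with shCHAF1B-2. Replicates agreed closely within each group, and a log2 fold change of −0.42 had an SE of 0.0331 (edgeR adjusted p = 1.5e-07).

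RRM2, the small subunit whose amount varies over the cell cycle, changed by −0.56 and stood at 0.43 to 0.455 of the RRM1 level per kilobase in shGFP, at 0.362, 0.396 and 0.381 with shCHAF1B-1 and at 0.405, 0.412 and 0.448 with shCHAF1B-2. Only shCHAF1B-2 replicate 3 reached the control range. DUT, which removes dUTP, changed by −0.63, and TK1, the S phase thymidine salvage kinase, by −0.57. DTYMK, the next kinase in thymidine triphosphate synthesis, changed least, by −0.32.

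TOP2A (ENSG00000131747.14, chr17:40388516-40417950, minus strand), the topoisomerase that untangles replicated DNA, stood at 326, 321 and 342 CPM in shGFP, 208, 230 and 234 with shCHAF1B-1 and 239, 254 and 236 with shCHAF1B-2. All knockdown libraries were below all controls, and the log2 fold change was −0.50 (SE 0.0452, edgeR adjusted p = 5.8e-07).

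**Figure D2:**
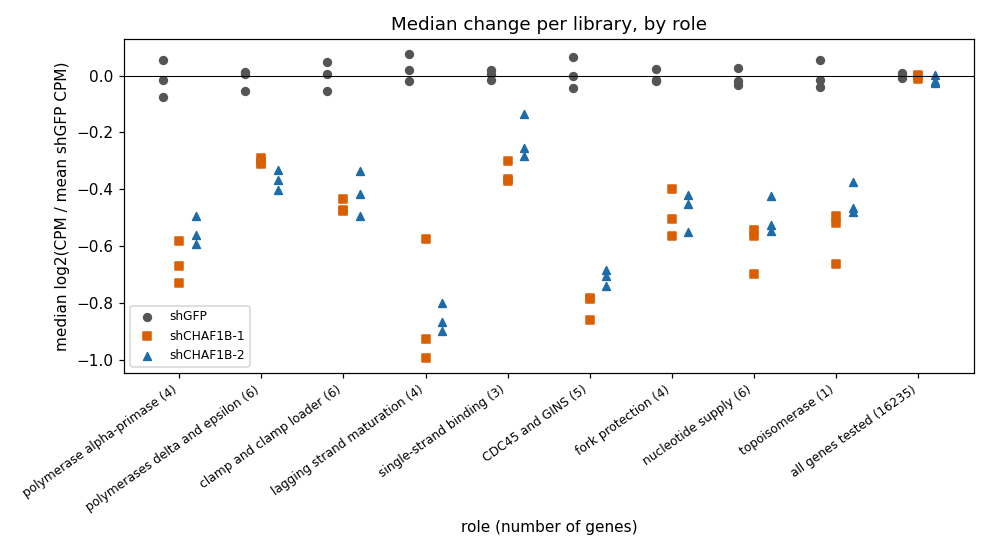
Points give each library's median log2 ratio to the mean shGFP CPM over the genes of a role, with the number of genes in brackets; circles are shGFP, squares shCHAF1B-1 and triangles shCHAF1B-2. In every role the 6 knockdown libraries lie below the 3 shGFP libraries, while for all genes tested the medians of all 9 libraries lie between −0.0276 and 0.00865.

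By role, the medians in the mean of both hairpins were lowest for lagging strand maturation (−0.86, or −0.62, the value of DNA2, over the 3 genes other than RNASEH2A) and for CDC45 and GINS (−0.76), intermediate for alpha-primase (−0.58), nucleotide supply (−0.56), TOP2A alone (−0.50), fork protection (−0.48) and the clamp and loader (−0.44), and nearest 0 for polymerases delta and epsilon (−0.34) and RPA (−0.28). This order is a description of groups of 1 to 6 genes, and the differences between roles were not tested. Over all 39 genes the library medians were −0.0327, −0.00204 and 0.0339 in shGFP, −0.628, −0.598 and −0.545 with shCHAF1B-1, and −0.536, −0.536 and −0.479 with shCHAF1B-2.

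The hairpins were each compared with the same shGFP libraries, so the 2 comparisons are not independent. With shCHAF1B-1, 37 genes passed downward and 0 upward (25.2% of all genes downward and 27.9% upward), with a median log2 fold change of −0.59 and 20 falls of at least 1.5-fold (7.64% of all genes). With shCHAF1B-2, 37 passed downward and 0 upward (24.6% and 26.7%), with a median of −0.53 and 14 falls of at least 1.5-fold (7.56%). FEN1 changed by −1.26 and −1.22, RFC4 by −0.92 and −0.89, and PRIM2 by −0.68 and −0.41 with the first and second hairpin.

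The difference between hairpins was tested directly. In shCHAF1B-2 minus shCHAF1B-1, 0 of the 39 genes passed, and 0 of 16235 genes (0.0%) passed with edgeR, with DESeq2 or with limma-voom. At an unadjusted edgeR p under 0.05 there were 5 of the 39 (12.8%), against 1800 of all genes (11.1%), and they were PRIM2, RPA2, RPA3, RRM2 and TOP2A. All 5 were higher with the second hairpin, as were 31 of the 39, against 48.5% of all genes. The median difference was 0.06 against −0.01 over all genes. The 95% intervals of the single genes, RNASEH2A aside, reached at most 0.119 to 0.471 from 0 on the log2 scale, farthest for PRIM2 (0.0751 to 0.471). The intervals of those 5 genes left out 0, though none passed after adjustment.

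**Figure D3:**
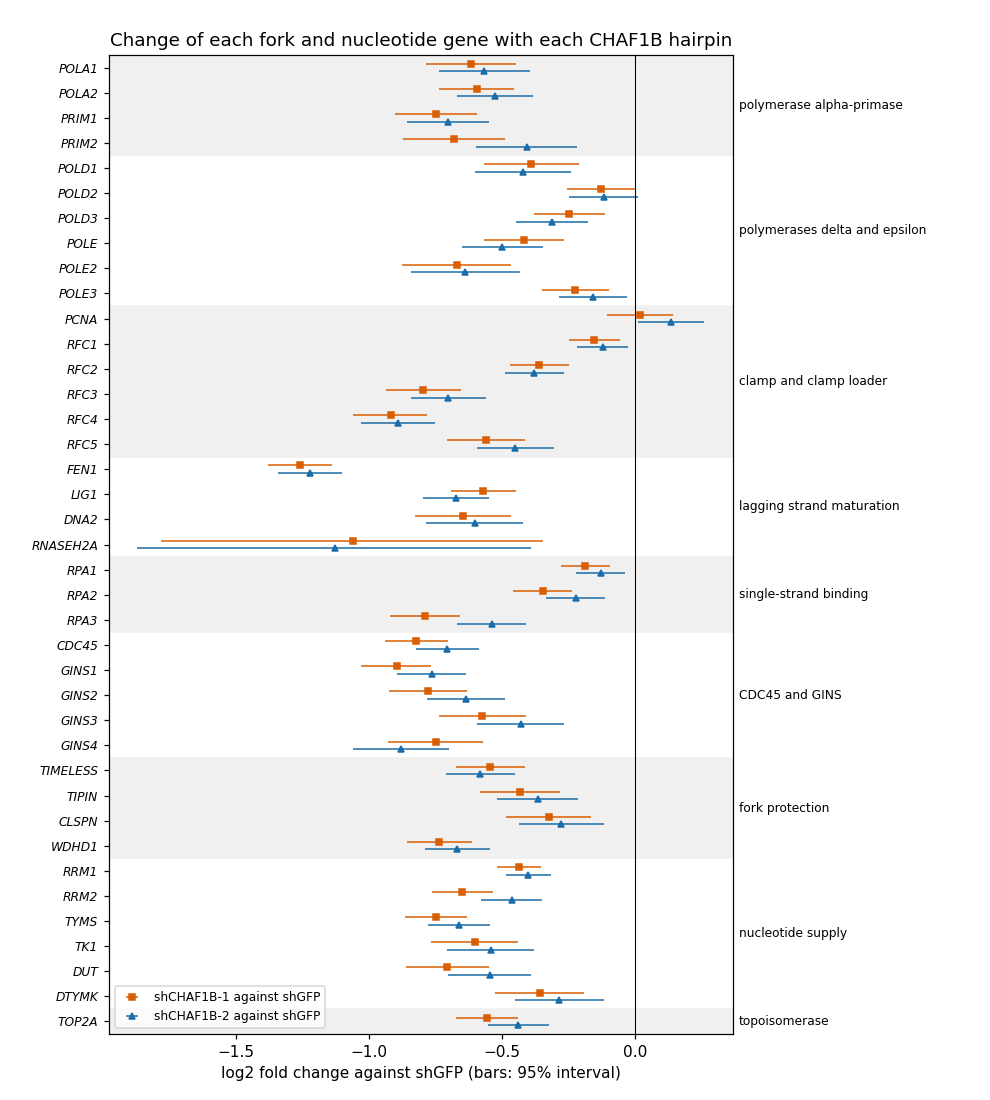
Points give each gene's log2 fold change against shGFP with shCHAF1B-1 (squares) and shCHAF1B-2 (triangles), and bars their 95% intervals from the fit of all 9 libraries. PCNA lies at 0.02 and 0.14 and POLD2 at −0.13 and −0.12, and the widest bars are those of RNASEH2A.

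Compared per kilobase of merged exons, the 39 genes spanned a wide range of levels in shGFP. PCNA was highest at 111.5 ± 5.77 CPM per kilobase (SD, n = 3), followed by RRM1 (51.9 ± 0.772) and TOP2A (51.2 ± 1.75), which did not differ beyond their spread. POLE3 (47.7 ± 2.24) and POLD2 (46.8 ± 2.32) came next and also overlapped. TK1 stood at 35.6 ± 2.77 and FEN1 at 33.3 ± 1.24. At the low end were GINS4 (3.62 ± 0.239), PRIM2 (3.18 ± 0.15) and RNASEH2A (0.205 ± 0.0358). In the knockdown groups PCNA stayed highest, at 112.9 and 122.5, while FEN1 was at 13.9 and 14.3. The length used changes these levels: with the longest transcript as the length, PRIM1 stood at 16.2 in place of 9.68 and POLD2 at 80.2 in place of 46.8, so that POLD2 came before RRM1 (68.5) and TOP2A (57.3).

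**Figure D4:**
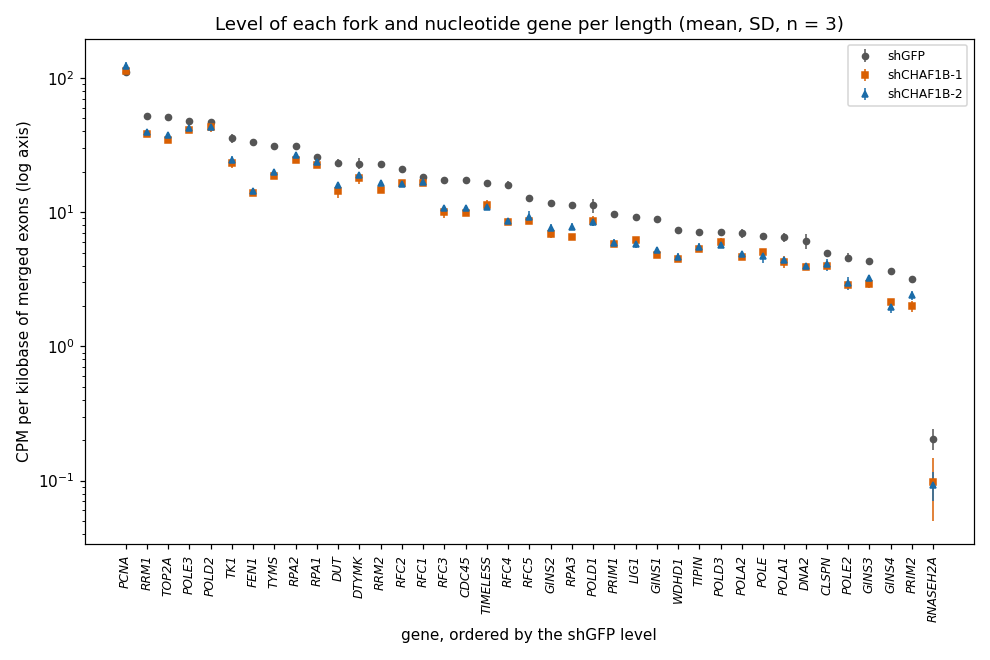
Levels of each gene in CPM per kilobase of merged exons on a log axis, with the genes ordered by shGFP; points are means of 3 libraries and bars their SD, for shGFP (circles), shCHAF1B-1 (squares) and shCHAF1B-2 (triangles). PCNA at 111.5 is the highest in shGFP and RNASEH2A at 0.205 the lowest.

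Across the 39 genes the more abundant tended to fall less. Pearson's r between the log2 mean CPM and the log2 fold change was 0.561 (Spearman's rho 0.501), and 0.475 (rho 0.466) over the 38 without RNASEH2A. Over all 8744 tested genes in the level range of those 38, r was 0.0242 and rho 0.0766. With levels per kilobase of merged exons the relation was weaker, at r 0.521 (rho 0.384) over the 39 genes. Without RNASEH2A it was then 0.417 (rho 0.34). Genes are not independent replicates, level and change come from the same libraries, and these values are descriptions. The genes with an E2F-type match in their promoter window had a median log2 fold change of −0.61 (12 genes, −0.83 to 0.08), and those with a window but no match −0.52 (22 genes, −1.24 to −0.12). A site with other letters or outside the window would be missed here. Whether the motif has a part in the changes was not tested.

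Genes near these in function were taken from lists chosen for this comparison with earlier results of these data known. Of 15 genes of the MCM helicase and its loading, 13 passed downward and 0 upward, with a median of −0.56, beside 27.7% downward over all genes tested. GMNN, the inhibitor of licensing, changed by −0.83 (SE 0.0414, edgeR adjusted p = 1.5e-09) and ORC1, the largest origin recognition subunit, by −0.84 (SE 0.0441), while ORC2 (−0.11) and ORC4 (−0.02) did not pass. ORC2 passed with upper-quartile scaling (−0.14) and without shGFP replicate 2 (−0.15). Of 8 origin firing genes 6 passed downward and 0 upward, beside 27.7% and 29.2% of all genes tested. MCM10, which helps start unwinding, went from 45.7 ± 3.08 CPM (SD, n = 3) to 16.2 ± 0.854 and 17.0 ± 0.595, a log2 fold change of −1.46 (SE 0.0547, edgeR adjusted p = 8.7e-11). CDC7, the kinase that triggers firing, changed by −0.69, and TOPBP1 (−0.02) and DONSON (−0.07) did not pass.

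Other subunits and processing factors of the fork were mixed, with 6 of 13 lower, 2 higher and a median of −0.07. The counts of this paragraph stand beside 27.7% lower and 29.2% higher over all genes tested. ATAD5, which unloads PCNA, changed by −0.60 and LIG3, the ligase of mitochondrial DNA and of break repair, by −0.50. Those that rose were POLD4, the smallest subunit of polymerase delta, from 5.01 ± 0.364 to 9.45 ± 0.64 and 8.35 ± 0.774 CPM (log2 fold change 0.83, SE 0.0912, edgeR adjusted p = 3.8e-06), and CHTF8, of the alternative clamp loader, by 0.24. POLD4 thus rose while POLD1 and POLD3 of the same polymerase fell. Among translesion and repair polymerases 5 of 11 fell and 3 rose, beside 27.7% and 29.2% of all genes. POLH, which copies past ultraviolet damage, changed by −0.40 and POLQ, of end joining, by −0.41. The rises were 0.72 for POLM, 0.38 for POLB, the base excision repair polymerase, and 0.24 for POLI. The POLI call was lost with upper-quartile scaling and without shGFP replicate 1 or 2, shCHAF1B-1 replicate 2, or shCHAF1B-2 replicate 1 or 2 (0.17 to 0.24). For mitochondrial DNA 3 of 6 fell and 0 rose, with the helicase TWNK at −0.47, the packaging factor TFAM at −0.36 and SSBP1 at −0.24.

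Nucleotide enzymes outside the fork list were mixed as well. Their counts stand beside 27.7% lower and 29.2% higher over all genes tested. Of 13 other deoxynucleotide enzymes 6 fell and 3 rose, with a median of −0.17. RRM2B, the reductase subunit used outside S phase, changed by −0.21, against rises of 0.36 for TK2, the mitochondrial thymidine kinase, 0.31 for SAMHD1, which breaks deoxynucleotides down, and 0.30 for GUK1. In the folate cycle that feeds thymidylate synthase 3 of 6 fell and 1 rose, with SHMT2, a serine hydroxymethyltransferase of mitochondria, at −0.42 and MTHFD1 at −0.28. For de novo purine and pyrimidine synthesis 11 of 17 fell, led by PRPS2 (−0.78) and IMPDH2 (−0.58), and ADSS (0.38) and IMPDH1 (0.23) rose.

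Among E2F, RB and DREAM regulators 13 of 19 fell and 2 rose, with a median of −0.27. This and the further counts below stand beside 27.7% lower and 29.2% higher over all genes tested. MYBL2, of the complex that turns on mitotic genes, changed by −0.56 (SE 0.0395, edgeR adjusted p = 4.8e-08) and FOXM1 by −0.41, against rises of 0.56 for E2F5 and 0.33 for E2F6. Of 15 G1/S cyclins, kinases and inhibitors 14 were tested, 6 fell and 5 rose. CCNA2, the S phase cyclin, changed by −0.49 and CDK2, its kinase, by −0.54. The kinase inhibitors CDKN1A and CDKN1B rose by 0.64 (SE 0.0522, edgeR adjusted p = 1.9e-07) and 0.49, and CCND1, CCND2 and CCND3 by 0.49, 0.35 and 0.16. The CCND3 call was lost with upper-quartile scaling, with no filter and without shGFP replicate 1 or 3, shCHAF1B-1 replicate 1 or shCHAF1B-2 replicate 3 (0.09 to 0.16). In the checkpoint list 6 of 9 fell, with ATRIP at −0.60 and RAD9A at −0.56, and HUS1 rose by 0.14, a call lost with upper-quartile scaling and without shGFP replicate 1 or shCHAF1B-2 replicate 1 (0.11 to 0.12). CDKN1A is also on the list of p53 targets, where 14 of 20 fell, among them BAX (−0.63) and DDB2 (−0.51), and 3 rose: TP53INP1 (0.99), CDKN1A and FAS (0.36).

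**Figure D5:**
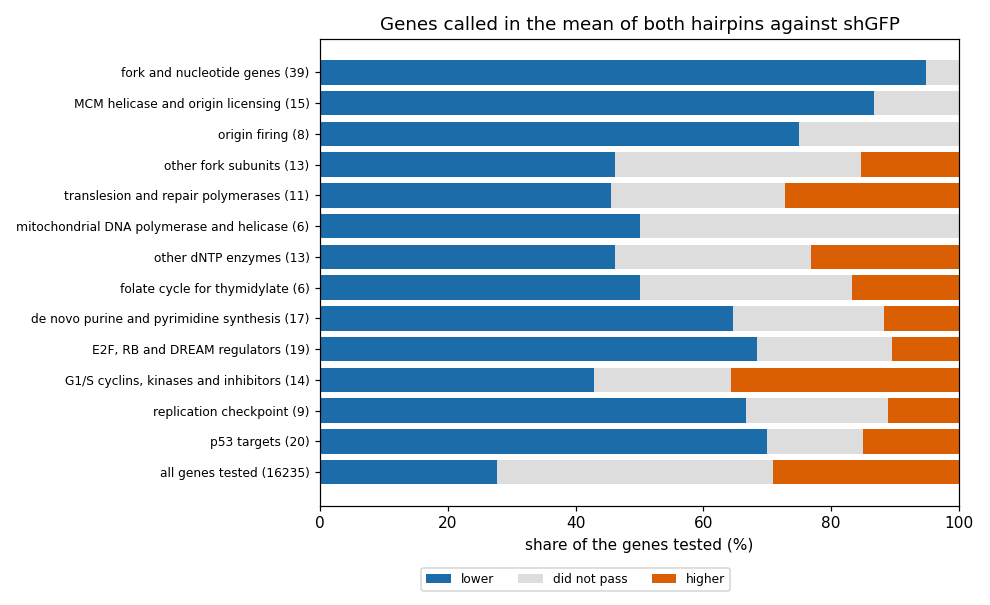
Bars give, for each list, the share of its tested genes that passed downward, did not pass or passed upward in the mean of both hairpins against shGFP, with the number tested in brackets. The 39 fork and nucleotide genes have 37 lower and 0 higher, and the lowest bar gives the background of all 16235 genes, with 27.7% lower and 29.2% higher.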

How the data were processed

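The authors deposited raw counts: unnormalized whole numbers, 1 per gene and library. The submitters' processing notes name the tools DESeq2 1.18.1, HTSeq 0.8.0 and STAR 2.5.3a, and list mm10 beside hg38 without saying what each was for. Per the labels' protocols, libraries were made with the TruSeq RNA kit, version 2, which does not mark strand. All 9 columns matched a library by its label. Identifiers were matched without version to GENCODE release 29 on GRCh38 (26149 matched, 37 not). The lowest gene total was 7 counts, so rarer genes may have been dropped before deposit.

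Counts were filtered with filterByExpr (minimum count 10, minimum total 15, proportion 0.7), scaled with TMM and fitted with edgeR 4.0.16 (R 4.3.3). Its quasi-likelihood test used 1 model of the 9 libraries, with the hairpin as the sole term (biological coefficient of variation 6.24%). The threshold was a Benjamini-Hochberg adjusted p of 0.05 over all 16235 genes tested. Intervals are 95% intervals of the fit. Lists were described by counts and medians and given no test of their own. The genes and lists were chosen with earlier results of these data known. Values in every library are given for CHAF1B, for the 2 genes of each role with the smallest adjusted p in the mean of both hairpins, and for genes that did not pass. Of each further list, the 2 with the smallest adjusted p in each direction were named, and others where a count of 5 or fewer needed them. ORC2, ORC4, TOPBP1 and DONSON were named by that last rule. Some genes that this rule would name are not reported here.

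Every pair of libraries within a group differed by more than sampling noise (chi-square per degree of freedom 3.68 to 12.4), and each library was counted as 1 replicate. Such differences may be technical, so they do not show that the libraries came from separate cultures. Replicate numbers are shared between groups in the labels, which do not say whether they pair the libraries. Of the 39 genes, 21 share exon bases with another gene, 15 of them on the opposite strand, and 9 have named pseudogenes, whose totals were at most 59 counts over the 9 libraries. On data simulated for the mean of both hairpins (15654 genes, 50 changed at each size), edgeR recovered 42% of the 1.25-fold changes, 68% of the 1.5-fold, 92% of the 2-fold and 100% of the 3-fold ones, and called 12 unchanged genes. Far fewer genes changed in the simulation than passed in the real libraries. The same adjusted p is then a stricter cut, so these shares do not measure recovery in the real libraries.

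The alternatives were RLE and upper-quartile scaling, DESeq2 1.42.0, limma-voom (limma 3.58.1), no filter, at least 1 CPM in 3 libraries, fits of the compared groups alone, a replicate block, an adjusted p under 0.01, a 1.5-fold minimum, leaving out each library in turn, and leaving out genes that hold a 7-mer picked out by earlier work on these data. Figures and sequence searches used Python 3.11.15, pandas 2.3.3 and matplotlib 3.10.9.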

Additional observations from a re-analysis of the deposited data

How the results depend on the processing

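Counts of fallen genes kept within 1.5 times of the values reported under every setting but the 1.5-fold minimum, which left 20 genes lower with shCHAF1B-1, 14 with shCHAF1B-2 and 17 in the mean of both. Leaving out each library in turn gave 36 to 37, 33 to 37 and 37 to 38 genes lower, with 0 to 1 higher for the second hairpin (PCNA) and 0 for the others, and medians of −0.615 to −0.574, −0.563 to −0.484 and −0.583 to −0.527. The 1.5-fold minimum aside, calls in the comparisons of single hairpins were lost for RFC1, POLE3, RPA1 and RNASEH2A, and the cause was not tested. At an adjusted p under 0.01 all 4 lost the call with shCHAF1B-2. RFC1 and RNASEH2A also lost it with shCHAF1B-1 at that threshold. Leaving out the 7 genes that hold any of the 7-mers (17.9%, against 18.3% of genes tested) moved the median to −0.444 with shCHAF1B-2 and −0.524 in the mean, over 32 genes. With shCHAF1B-1, PCNA turned to −0.0085 under upper-quartile scaling and ranged from −0.0249 to 0.0421 with single libraries left out. In shCHAF1B-2 minus shCHAF1B-1 the sign of small values that did not pass turned for RNASEH2A with limma-voom (0.0165). Leaving out single libraries also turned it for RNASEH2A (−0.3203 to 0.3408), CLSPN (−0.0317 to 0.1159), FEN1 (−0.0173 to 0.0723), POLA1 (−0.0271 to 0.1096), POLD1 (−0.0818 to 0.0347), POLD2 (−0.0347 to 0.0729), POLE (−0.1723 to 0.000932), POLE2 (−0.0286 to 0.1294), RFC2 (−0.0387 to 0.000945), TIMELESS (−0.0768 to 0.0342) and TK1 (−0.0078 to 0.1244). For the further lists, the same alternatives were added after seeing the data; ORC4 (−0.0482 to 0.0156) and TOPBP1 (−0.0348 to 0.00294) turned sign with single libraries left out. Leave-one-out counts of genes that differed between hairpins were all 0, with a median difference of 0.0353 to 0.0818.

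With the replicate block, 37 genes fell and 0 rose in the mean of both hairpins, with a median of −0.559, so the count of calls did not move. Same-numbered libraries of different groups had correlations of their deviations from −0.138 to 0.1, against −0.217 to 0.22 for different numbers, and the numbers were not taken as pairs. RNASEH2A had 5 to 25 counts a library, and the lowest count of the other 38 genes in a library was 193.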
